A study of Mus musculus with 18 samples.

Results

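Fc receptors bind the constant part of antibodies, and the ITAM is a short tyrosine-containing motif through which several of these receptors signal. The 10 genes described here code for the activating Fc gamma receptors (Fcgr1, Fcgr3 and Fcgr4), the signalling adaptors that immune receptors borrow (Fcer1g, Tyrobp and Hcst), the kinases Syk and Btk, the phospholipase Plcg2 and the lipid phosphatase Inpp5d. They were chosen by symbol, and 10 of 10 were found among the 35441 genes of a liver RNA-seq table. All 10 also passed the filter on low counts, which kept 14533 genes with more than 100 reads summed over 18 mice. Livers came from male mice on a C57/BL6N background, with 3 mice in each of 6 groups. WT mice were compared with Lipa-/- mice, in which exon 4 of Lipa had been removed in every tissue by a CMV-driven Cre, so that lysosomal acid lipase, the enzyme that frees cholesterol and fatty acids in lysosomes, was lost. The third kind of mouse was Lipa-/- treated at 10- to 12-weeks of age, by tail vein, with rAAV8.hAAT.LIPA, a viral vector carrying human LIPA under the hepatocyte-specific hAAT promoter. Each kind was sampled at 12- and at 34-weeks post-injection, labelled 3 and 8 months. WT and untreated Lipa-/- mice received no vector, and most untreated Lipa-/- mice of the long arm were killed at predefined endpoints before 34-weeks. Mice of the 2 time points carry different study codes, so time and code cannot be told apart. Of the untreated Lipa-/- mice at 12-weeks, mouse 5 carries a code of its own, and without it 10 of 10 genes were still called higher than in WT mice by the rule given below.

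The receptors of this pathway mostly cannot signal alone. Fcgr1, Fcgr3 and Fcgr4 need the Fc receptor gamma chain (Fcer1g), whose ITAM tyrosines are phosphorylated by Src family kinases and then bound by Syk. Tyrobp, also called DAP12, serves in the same way a large set of receptors without antibody ligands, such as Trem2, and Hcst, also called DAP10, carries a tyrosine motif that recruits PI3 kinase instead of Syk. Downstream of Syk, Btk and Plcg2 drive calcium signalling, whereas Inpp5d (SHIP1) removes a phosphate from the lipid made by PI3 kinase and works against it, often through the inhibitory receptor Fcgr2b. In the liver these genes are known mainly from Kupffer cells, infiltrating monocytes and macrophages, neutrophils and NK cells, and not from hepatocytes. In bulk liver RNA, more cells of a type and more RNA per cell cannot be told apart.

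The signalling motifs of the adaptors are short stretches of 15 or 4 codons. The coding DNA of their motifs, read from the GENCODE transcripts of GRCm39, is given 5′ to 3′ with the tyrosine codons in capitals. Fcer1g and Tyrobp each held 1 ITAM with 2 tyrosine codons within 15 codons, and Hcst held 1 tyrosine codon in the stretch of 4 codons shown.
Fcer1g ITAM: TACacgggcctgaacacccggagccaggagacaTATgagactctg
Tyrobp ITAM: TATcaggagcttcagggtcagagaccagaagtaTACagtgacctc
Hcst motif: TACatcaacatg
The Fcer1g stretch runs over exons 4 and 5 of 5, within chr1:171057458-171057641 on the minus strand. That of Tyrobp also spans exons 4 and 5 of 5, at chr7:30115095-30116807 on the plus strand. Hcst has its stretch in exon 4 of 4, at chr7:30117246-30117257 on the minus strand. Tyrobp and Hcst are neighbours on chromosome 7, and their annotated ends lie 125 bases apart on opposite strands.

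Promoters of 9 of the 10 genes were found in a RefSeq table on build GRCm38.p6 that gives 250 bases before and 50 after each start site. Tyrobp had no entry. The letters GAGGAA, the core of the box bound by the myeloid factor PU.1, were searched on both strands. They occurred in 6 of the 9 genes (7 of 11 entries, since Fcgr3 and Syk have 2 each) and in 28.3% of the 32851 promoters of the table. The promoters of the 3 activating receptors and of Inpp5d are shown because they hold a match, so that its place can be seen. Btk and an entry of Syk also held a match and are not shown, and no match was found for Fcer1g, Hcst and Plcg2. Matches on either strand are in capitals.
Fcgr1 promoter: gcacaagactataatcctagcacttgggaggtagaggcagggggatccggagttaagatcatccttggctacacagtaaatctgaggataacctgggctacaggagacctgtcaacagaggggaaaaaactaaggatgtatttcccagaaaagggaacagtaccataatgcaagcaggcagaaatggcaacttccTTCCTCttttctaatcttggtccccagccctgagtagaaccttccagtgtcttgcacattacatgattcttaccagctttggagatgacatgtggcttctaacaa
Fcgr3 promoter: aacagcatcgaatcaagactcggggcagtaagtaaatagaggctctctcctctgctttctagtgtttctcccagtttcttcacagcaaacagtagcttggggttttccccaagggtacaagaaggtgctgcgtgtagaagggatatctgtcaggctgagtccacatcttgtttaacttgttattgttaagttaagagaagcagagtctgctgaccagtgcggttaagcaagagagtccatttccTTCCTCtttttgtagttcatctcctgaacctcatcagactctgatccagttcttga
Fcgr4 promoter: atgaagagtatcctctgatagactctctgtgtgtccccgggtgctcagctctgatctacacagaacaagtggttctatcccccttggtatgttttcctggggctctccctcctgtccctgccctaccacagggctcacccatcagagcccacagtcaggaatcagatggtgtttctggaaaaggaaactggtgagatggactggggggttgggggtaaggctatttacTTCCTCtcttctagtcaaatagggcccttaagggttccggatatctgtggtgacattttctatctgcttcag
Inpp5d promoter: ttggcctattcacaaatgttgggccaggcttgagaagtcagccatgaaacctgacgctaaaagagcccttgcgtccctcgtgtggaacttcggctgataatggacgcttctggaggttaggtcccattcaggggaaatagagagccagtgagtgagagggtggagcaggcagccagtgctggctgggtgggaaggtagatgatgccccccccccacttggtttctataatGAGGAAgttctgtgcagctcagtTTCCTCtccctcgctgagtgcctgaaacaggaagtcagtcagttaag
On that build they lie at chr3:96293920-96294219 for Fcgr1 and chr1:171059354-171059653 for Fcgr3, both on the minus strand. The plus-strand promoters are at chr1:171018676-171018975 for Fcgr4 and chr1:87620062-87620361 for Inpp5d. A match describes letters only, and binding was not measured.

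The libraries held 17527848 to 25833134 estimated reads. Murine Lipa was at 201.8 to 323.2 CPM (reads as a share of the library, scaled with TMM factors) in the WT mice and at 16.7 to 37 CPM in all mice with the deletion, and human LIPA reached 522.7 to 2744.8 CPM in the treated mice against at most 0.906 CPM elsewhere. Among the treated mice at 34-weeks, mouse 12 stood apart. Its 8 neutrophil markers summed to 2365.8 TPM (transcript abundance, a level per length) against 5.87 and 11.8 TPM in the other two, and its human LIPA was the lowest, at 522.7 CPM. The comparisons of treated with WT mice at 34-weeks are therefore also given without it. The scaling mattered as well. Against TMM, scaling by total counts moved the median log2 change of all genes by 0.47 and 0.63 in Lipa-/- against WT mice (12- and 34-weeks), by -0.40 and 0.09 in treated against WT, and by -0.87 and -0.54 in treated against untreated Lipa-/- mice. Of all calls, the percentage in the higher direction then went from 69.1 to 87.1 and from 56.6 to 81.8 in the first kind of comparison, from 53.1 to 24.4 and from 59.4 to 70.8 in the second, and from 39 to 8.93 and from 40.8 to 18.5 in the third.

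All 10 genes were higher in Lipa-/- than in WT livers at both time points. At 12-weeks the log2 change was between 2.90 (Fcgr4) and 5.14 (Fcer1g and Tyrobp), with a median of 3.95, and at 34-weeks it was between 2.00 (Fcgr4) and 4.23 (Fcer1g), with a median of 3.31. Over all genes tested the medians were 0.02 and -0.03. The signalling adaptors Fcer1g and Tyrobp rose 35.3- and 35.4-fold at 12-weeks, and the kinase Syk 20.4-fold. A gene was called changed where its log2 change passed 1 in either direction with an adjusted p under 0.05 (edgeR quasi-likelihood test, Benjamini-Hochberg over all genes tested). By this rule 10 of 10 members were called higher at each time, against 20.2% of all genes tested at 12-weeks and 20.5% at 34-weeks. In 10 of 10 every Lipa-/- mouse lay above every WT mouse at each time, which held for 28.6% and 30.5% of all genes. These calls did not depend on the scaling, since 10 of 10 were also called with total counts and with upper quartile factors.

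**Figure D1:**
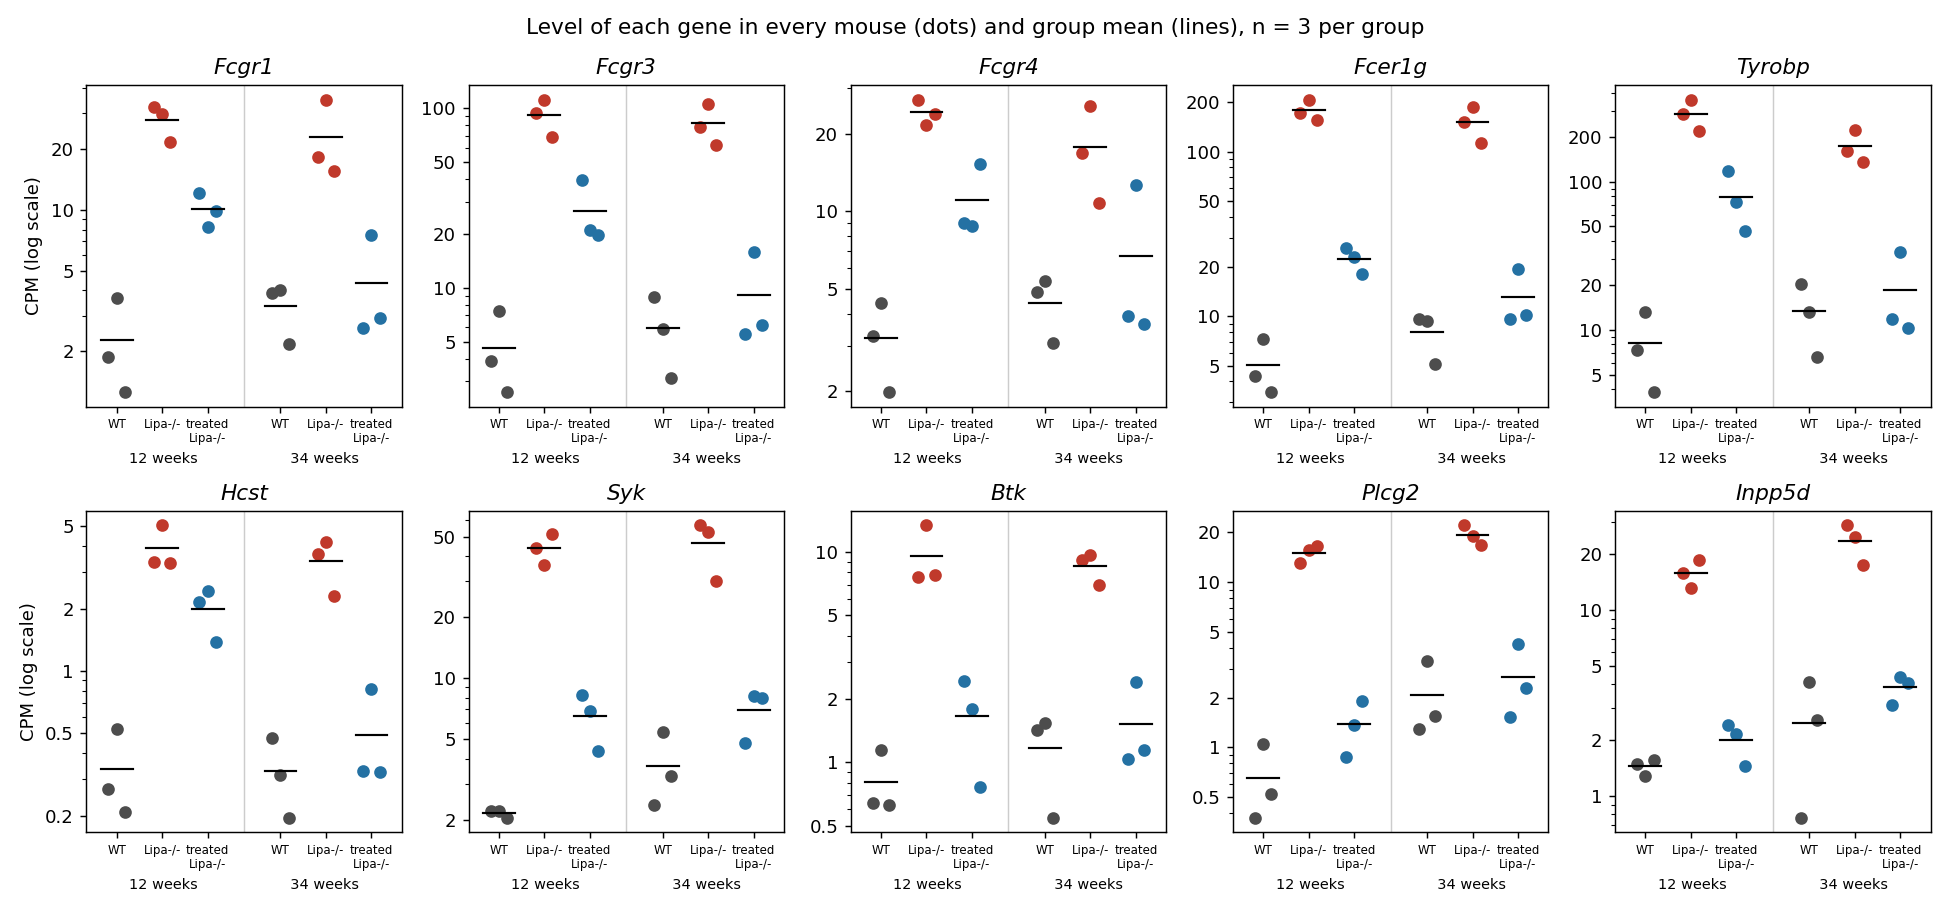
Level of the 10 genes in every mouse, in CPM on a log scale, with WT in grey, Lipa-/- in red and treated Lipa-/- in blue (3 mice per group, lines at the group means). In every panel the Lipa-/- mice lie above the WT mice of the same time, and among the treated mice at 34-weeks mouse 12 is the highest in 10 of 10 panels.

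Among the activating receptors, Fcgr3, the low-affinity receptor for IgG, changed most. At 12-weeks it was at 3.91, 7.37 and 2.62 CPM in WT, at 93.8, 111.5 and 68.9 CPM in Lipa-/- and at 39.9, 20.9 and 19.7 CPM in treated Lipa-/- mice. At 34-weeks the same groups stood at 8.85, 5.87 and 3.15 CPM, at 78.8, 105.7 and 62.2 CPM, and at 5.52, 15.7 and 6.18 CPM. The groups of 12-weeks were thus fully separate, whereas at 34-weeks treated and WT mice overlapped. The change from WT to Lipa-/- was 4.297 ± 0.516 (log2 ± SE, n = 3 mice per group, edgeR adjusted p = 6.76e-06) at 12-weeks and 3.80 ± 0.50 (edgeR adjusted p = 1.31e-05) at 34-weeks.

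Fcgr4, the receptor for mouse IgG2 subclasses found on monocytes and neutrophils, changed least of the 10. It stood at 3.27, 4.4 and 1.99 CPM in WT, at 27.1, 21.6 and 23.8 CPM in Lipa-/- and at 9.03, 8.8 and 15.3 CPM in treated mice at 12-weeks. The 34-week values were 4.84, 5.36 and 3.07 CPM, 16.8, 25.5 and 10.8 CPM, and 3.93, 12.6 and 3.66 CPM. Here the highest treated mouse, mouse 12, lay above the lowest Lipa-/- mouse. The log2 change in Lipa-/- was 2.90 ± 0.47 and 2.00 ± 0.45 (edgeR adjusted p = 0.000126 and 0.0016, n = 3 mice per group). Fcgr1, the high-affinity IgG receptor, was at 1.26 to 3.68 CPM in WT and 21.7 to 32.3 CPM in Lipa-/- mice at 12-weeks, with log2 changes of 3.61 ± 0.48 and 2.77 ± 0.46 at the 2 times.

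Tyrobp and Fcer1g held the highest levels per length (TPM) of the 10 in every group. Summed over the 10 genes, the level was 25.1 to 55.7 TPM in WT, 1293.7 to 2040.4 TPM in Lipa-/- and 113.8 to 205.7 TPM in treated mice at 12-weeks, and 44.1 to 89.1, 1079.4 to 1842.8 and 67.1 to 186.6 TPM at 34-weeks. Tyrobp was at 7.29, 13.3 and 3.82 CPM in WT, at 285.5, 358.8 and 218.9 CPM in Lipa-/- and at 118.5, 73.1 and 46.4 CPM in treated mice at 12-weeks. At 34-weeks it was at 20.6, 13.2 and 6.61 CPM, at 160.2, 225.3 and 136.8 CPM, and at 11.9, 33.6 and 10.3 CPM. Treated mice thus lay between the other groups at 12-weeks and within the WT range at 34-weeks, except for mouse 12.

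Fcer1g followed the same order with a smaller residue in treated mice. Its 12-week levels were 4.34, 7.27 and 3.45 CPM in WT, 171.2, 207 and 155.8 CPM in Lipa-/- and 25.8, 22.8 and 17.9 CPM in treated mice. At 34-weeks it stood at 9.55, 9.3 and 5.14 CPM, at 151.1, 186.7 and 112.9 CPM, and at 9.56, 19.3 and 10.2 CPM. The lowest treated mouse of that time and the highest WT mouse were almost level, at 9.56 and 9.55 CPM. The log2 change in Lipa-/- was 5.14 ± 0.38 at 12-weeks and 4.23 ± 0.37 at 34-weeks (edgeR adjusted p = 6.51e-08 and 2.45e-07, n = 3 mice per group).

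Hcst was measured on few reads, 4 to 11 per WT mouse and 63 to 125 per Lipa-/- mouse, so its values carry the most counting error. In WT mice it was at 0.195 to 0.526 CPM, close to the 0.117 to 0.177 CPM that a count of 3 reads is worth in those libraries. At 12-weeks Lipa-/- mice held 3.34, 5.05 and 3.33 CPM, and treated mice 2.14, 2.44 and 1.38 CPM. The log2 change in Lipa-/- was 3.51 ± 0.48 and 3.39 ± 0.48 at the 2 times.

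The kinases and effectors rose as well. Syk was at 2.2, 2.2 and 2.04 CPM in WT, at 43.9, 36 and 51.7 CPM in Lipa-/- and at 8.26, 6.9 and 4.37 CPM in treated mice at 12-weeks. At 34-weeks it was at 2.36, 5.4 and 3.27 CPM, at 56.8, 52.5 and 30.1 CPM, and at 4.75, 8.17 and 7.96 CPM. Its WT mice at 12-weeks agreed closely with one another, and each treated mouse of that time lay above them. Plcg2 rose by 4.51 ± 0.47 and 3.21 ± 0.43 (log2), Btk by 3.56 ± 0.48 and 2.89 ± 0.46, and Syk by 4.35 ± 0.36 and 3.65 ± 0.35.

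Plcg2 differed from the receptors in where its treated mice lay. It was at 0.375, 1.05 and 0.523 CPM in WT, at 13, 15.6 and 16.6 CPM in Lipa-/- and at 0.874, 1.36 and 1.92 CPM in treated mice at 12-weeks, and the lowest treated mouse lay below the highest WT mouse. Inpp5d, the phosphatase that opposes PI3 kinase, showed the same overlap, with 1.5, 1.29 and 1.57 CPM in WT, 15.9, 13.2 and 18.6 CPM in Lipa-/- and 2.43, 2.17 and 1.46 CPM in treated mice. The inhibitor therefore rose together with the activating members in Lipa-/- mice, by 3.45 ± 0.42 and 3.22 ± 0.40 on the log2 scale (edgeR adjusted p = 7.5e-06 at each time, n = 3 mice per group). Its WT mice at 34-weeks were spread from 0.767 to 4.14 CPM.

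Treated mice at 12-weeks kept part of the increase. Compared with WT, 7 of 10 genes were called higher, which were the 3 receptors, the 3 adaptors and Syk, against 13.6% of all genes tested. Tyrobp was highest, at 3.28 ± 0.56 (log2 ± SE, n = 3 mice per group, edgeR adjusted p = 0.00211), or 9.74-fold. It was followed by Hcst at 2.54 ± 0.49 and Fcgr3 at 2.53 ± 0.48, by Fcer1g and Fcgr1 at 2.14 each, by Fcgr4 at 1.77 ± 0.46 and by Syk at 1.59 ± 0.34. Plcg2 at 1.08 ± 0.49 (edgeR adjusted p = 0.0874), Btk at 1.02 ± 0.49 (edgeR adjusted p = 0.11) and Inpp5d at 0.47 ± 0.43 (edgeR adjusted p = 0.392) did not pass. In the 7 genes called, every treated mouse lay above every WT mouse, which held for 27.7% of all genes. With total counts 7 members were called as well. On log2 TPM with limma 5 were called, without Fcgr4 (1.11, limma adjusted p = 0.0537) and Syk (0.78, limma adjusted p = 0.152), and Inpp5d turned to -0.10. Calls for single members also hung on single WT mice. Without WT mouse 3, Fcgr4 at 1.52 missed the threshold (edgeR adjusted p = 0.0559), and without WT mouse 2, Plcg2 at 1.62 passed it (edgeR adjusted p = 0.0326).

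At 34-weeks none of the 10 genes was called against WT in treated mice. The log2 changes ran from 0.37 (Plcg2) to 0.91 (Syk), with a median of 0.61, and edgeR called 0 of 10, as did DESeq2 and limma, against 0.131% of all genes tested. At an unadjusted p under 0.05 there were 2, Syk and Fcer1g, with edgeR adjusted p = 0.608 and 0.851. For Fcer1g alone did the groups not overlap, against 4.78% of all genes. Without treated mouse 12, 6 of the 10 turned to the other side of WT, and these were Fcgr1 at -0.27, Fcgr3 at -0.02, Fcgr4 at -0.22, Tyrobp at -0.28, Plcg2 at -0.12 and Btk at -0.08 on the log2 scale, none of them called. Mouse 12 was the treated mouse with raised neutrophil markers and the lowest human LIPA, and the part of either in its levels was not tested.

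**Figure D2:**
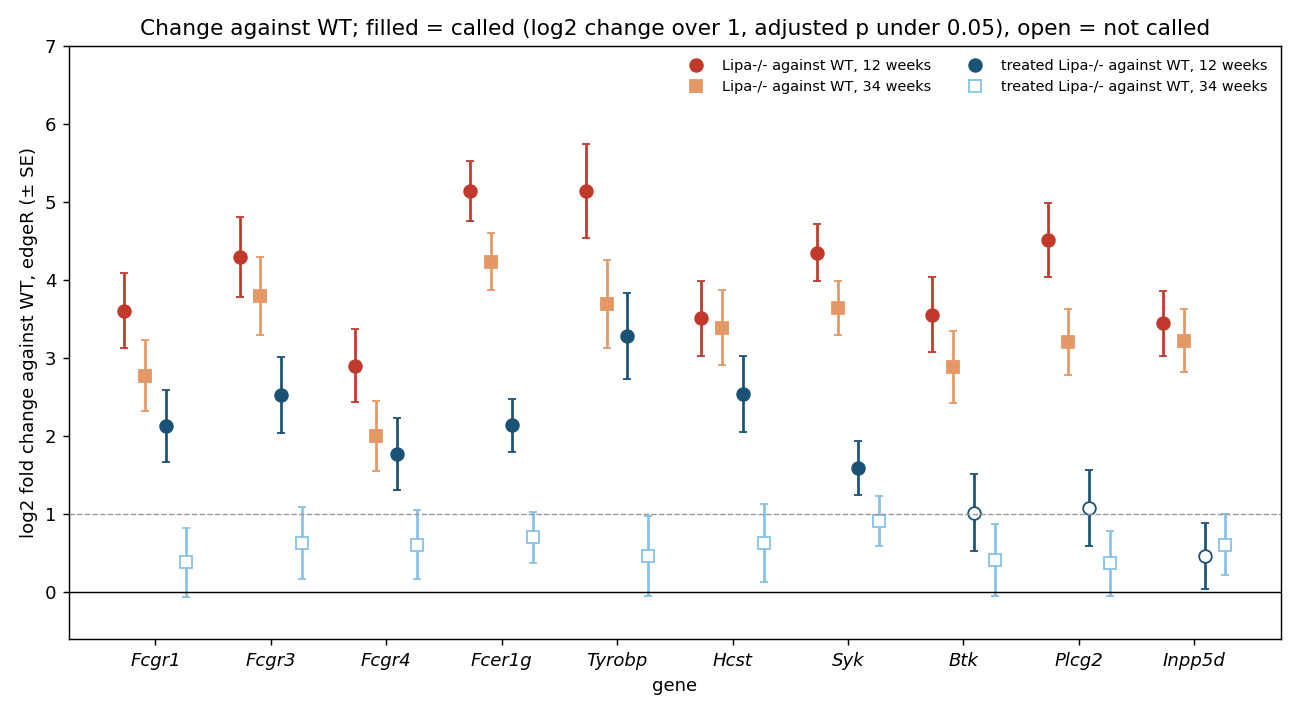
Log2 change against WT (points, ± SE from edgeR) for each gene in Lipa-/- and in treated Lipa-/- mice at 12- and 34-weeks, 3 mice per group. All 20 changes of untreated Lipa-/- mice are filled, meaning called, as are 7 changes of treated mice at 12-weeks, and the 10 of treated mice at 34-weeks are open and lie between 0.37 and 0.91.

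Against untreated Lipa-/- mice, 9 of 10 genes were called lower in treated mice at 12-weeks and 10 of 10 at 34-weeks, against 25.3% and 18.6% of all genes tested. Plcg2 fell most at 12-weeks, by 3.43 ± 0.45 on the log2 scale, followed by Fcer1g at -3.00 ± 0.35, Inpp5d at -2.98 ± 0.41 and Syk at -2.76 ± 0.33. The receptors fell less. Fcgr4 changed by -1.13 ± 0.44, Fcgr1 by -1.48 ± 0.43 and Fcgr3 by -1.77 ± 0.46, and Hcst at -0.97 ± 0.42 was not called (edgeR adjusted p = 0.0604). Treated mice held 50.8% of the mean Lipa-/- level of Hcst and 45.8% of that of Fcgr4, but 9.18% of that of Plcg2 and 12.5% of that of Fcer1g. At 34-weeks the decrease ran from 1.39 (Fcgr4) to 3.53 (Fcer1g), and the share of the Lipa-/- level from 38% for Fcgr4 to 8.66% for Fcer1g. All 10 were separated between the groups at 12-weeks and 9 at 34-weeks, which held for 32.8% and 28.5% of all genes. Hcst at 12-weeks was called with total counts (-1.82), with upper quartile factors (-1.06) and on TPM with limma (-2.11). Fcgr4 was the least secure. At 12-weeks it was not called without treated mouse 10 or 11 or Lipa-/- mouse 5 or 8 (-1.14 to -0.98), and at 34-weeks without treated mouse 9 or 11 or Lipa-/- mouse 5 (-1.12 to -1.03). Without treated mouse 12 all 10 were called at 34-weeks. These 3 kinds of comparison share mice, so the same Lipa-/- or WT mouse enters more than 1 of them.

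The 2 time points were compared within each kind of mouse, with the limit that their study codes also differ. Most untreated Lipa-/- mice of the long arm were killed before 34-weeks, so for these mice that label may stand for an earlier time. This also bears on their 34-week comparisons with WT and treated mice. Within WT, edgeR called 0 of 10 (2 at an unadjusted p under 0.05, Plcg2 at 1.66 ± 0.46 and Syk at 0.79 ± 0.34; DESeq2 called 1), against 0.323% of all genes. Among Lipa-/- mice edgeR and DESeq2 called 0 of 10 (0 at an unadjusted p under 0.05), against 0.495%. Among treated mice 2104 of the 14533 genes tested were called lower at 34- than at 12-weeks, and 32% in either direction. Of the 10 members, 0 were called higher and 4 lower. These were Tyrobp at -2.09 ± 0.53 (edgeR adjusted p = 0.0051), Hcst at -1.99 ± 0.46 (edgeR adjusted p = 0.00318), Fcgr3 at -1.55 ± 0.46 (edgeR adjusted p = 0.0132) and Fcgr1 at -1.19 ± 0.44 (edgeR adjusted p = 0.0359). With total counts (-0.52 and -0.86) or with limma on TPM (-0.39 and -0.62), Fcgr1 and Fcgr3 were no longer called, while Tyrobp (-1.42 and -1.24) and Hcst (-1.37 and -1.11) still were. The count of 4 became 2 without treated mouse 10 of 12-weeks or mouse 9 of 34-weeks, and 6 without treated mouse 12 of 34-weeks. The 4 downstream genes stood on the other side or near 0, with Plcg2 at 0.95 ± 0.44, Inpp5d at 0.94 ± 0.41, Syk at 0.11 ± 0.32 and Btk at -0.10 ± 0.47, and none of them was called. This depended on the scaling. With total counts Plcg2 (1.59, edgeR adjusted p = 0.012) and Inpp5d (1.58, edgeR adjusted p = 0.0111) were called higher at 34-weeks, and with limma on TPM so were Plcg2 (1.46), Inpp5d (1.61) and Syk (1.01, limma adjusted p = 0.0489).

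A difference of the differences asks whether the gap to WT itself changed between the times. For untreated Lipa-/- mice, edgeR and DESeq2 called 0 of 10 (1 at an unadjusted p under 0.05, Plcg2), against 0.0619% of all genes. For treated mice, Tyrobp at -2.82 ± 0.74 (edgeR adjusted p = 0.026) and Fcer1g at -1.43 ± 0.47 (edgeR adjusted p = 0.0432) were called, against 18.4% of all genes, and DESeq2 called 5. Fcgr3 (-1.89, edgeR adjusted p = 0.0523), Fcgr1 (-1.75, edgeR adjusted p = 0.0601) and Hcst (-1.91, edgeR adjusted p = 0.0634) came next. Fcer1g was not called with upper quartile factors (-1.34, edgeR adjusted p = 0.0562), total counts (-0.94, edgeR adjusted p = 0.151), offsets for transcript length (-1.35, edgeR adjusted p = 0.0523) or limma on TPM (-0.69, limma adjusted p = 0.278). With only the groups compared in the fit, neither Fcer1g (-1.32, edgeR adjusted p = 0.0974) nor Tyrobp (-2.70, edgeR adjusted p = 0.0644) was called. The number called hung on single mice. It was 0 without WT mouse 1 or 3 of 12-weeks, treated mouse 10 of 12-weeks, WT mouse 1 of 34-weeks or treated mouse 9 or 11 of 34-weeks, 1 without WT mouse 2 of 34-weeks or treated mouse 11 of 12-weeks, 5 without WT mouse 2 of 12-weeks or mouse 3 of 34-weeks, and 6 without treated mouse 12 of 34-weeks.

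In the order of the 6 group means, the Lipa-/- groups came first and second for all 10 genes, and edgeR found no difference between them, with adjusted p from 0.46 (Inpp5d) to 0.919 (Syk). Treated mice of 12-weeks held the third place for Fcgr1, Fcgr3, Fcgr4, Fcer1g, Tyrobp, Hcst and Btk. For Syk, Plcg2 and Inpp5d the third place went to the treated mice of 34-weeks. Among the lower places, the step from treated to WT mice at 34-weeks did not pass for any gene, and for Plcg2 and Inpp5d the 12-week treated mice lay below the 34-week WT mice, though not beyond their spread (edgeR adjusted p = 0.309 and 0.542).

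Ratios of 2 genes within a mouse do not depend on the scaling of the library. Of 8 pairs, 4 differed between 6 Lipa-/- and 6 WT mice, tested on log2 TPM ratios with a two-sided exact permutation test within time points (400 arrangements, smallest possible p 0.005, adjusted over the 8 pairs). The inhibitory receptor Fcgr2b fell furthest behind, here set against the activating receptor Fcgr3. In bulk liver RNA the 2 transcripts need not come from the same cells, which was not tested. The 2 genes also share some transcript sequence, so the division of reads between them is less certain than for the other genes. There were 5.84 ± 2.20 Fcgr2b transcripts per Fcgr3 transcript in WT mice at 12-weeks (SD, n = 3) and 0.496 ± 0.131 in Lipa-/- mice. At 34-weeks the ratio was 4.45 ± 1.86 against 0.554 ± 0.111. Fcgr2b was thus the more abundant transcript in all WT mice and Fcgr3 in all Lipa-/- mice, and the mean ratio fell to 0.107 of that in WT (exact permutation p = 0.005, adjusted 0.0133). In treated mice the ratio was 0.718 ± 0.128 at 12-weeks and 2.46 ± 1.33 at 34-weeks, on average 0.26 of WT (exact permutation p = 0.01, adjusted 0.08). Fcgr2b itself was at 32.9 to 35.4 CPM in WT, 47.9 to 72.2 CPM in Lipa-/- and 22 to 29 CPM in treated mice at 12-weeks.

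The activating receptors also shifted among themselves. There were 4.37 ± 0.06 Fcgr3 per Fcgr1 transcript in WT mice at 12-weeks and 7.01 ± 0.85 in Lipa-/- mice, and 3.65 ± 0.99 against 7.90 ± 1.39 at 34-weeks (1.87-fold over both times, exact permutation p = 0.005, adjusted 0.0133). The ratio Fcgr4/Fcgr1 went the other way, with 3.48 ± 0.62 in WT and 2.06 ± 0.45 in Lipa-/- mice at 12-weeks, then 3.05 ± 0.20 and 1.77 ± 0.30 (0.584-fold, exact permutation p = 0.005, adjusted 0.0133). Hcst fell behind Tyrobp, with a ratio of 0.0705 ± 0.0137 in WT and 0.0228 ± 0.0028 in Lipa-/- mice at 12-weeks, then 0.0432 ± 0.0064 and 0.0323 ± 0.0050 (0.494-fold, exact permutation p = 0.01, adjusted 0.02), and the groups overlapped at the later time. In treated mice no pair passed after adjustment, with all mice or without mouse 12 of 34-weeks (Fcgr2b/Fcgr3 then at -1.93 on the log2 scale, exact permutation, adjusted p = 0.08). Fcgr2b/Fcgr3 did pass without WT mouse 1 of 34-weeks (-2.10) or treated mouse 11 of 34-weeks (-2.27), and Inpp5d/Syk without that WT mouse (-0.81), each with adjusted p = 0.04 by exact permutation. For the 2 ITAM adaptors there were 1.92 ± 0.49 Tyrobp per Fcer1g in WT and 1.97 ± 0.18 in Lipa-/- mice at 12-weeks. At 34-weeks the ratio was 2.01 ± 0.61 in WT and 1.43 ± 0.11 in Lipa-/- mice, and there the groups did not overlap (exact permutation p = 0.35 over both times, adjusted 0.4). Treated mice held 3.22 to 5.61 at 12-weeks, above all WT mice of that time, and 1.21 to 2.14 at 34-weeks.

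Against Syk, the downstream genes gave no difference that passed. Inpp5d/Syk was at 0.841 ± 0.157 in WT and 0.469 ± 0.011 in Lipa-/- mice at 12-weeks, without overlap, but at 34-weeks the groups overlapped (0.841 ± 0.409 and 0.694 ± 0.051, exact permutation p = 0.135 over both times, adjusted 0.18). Btk/Syk changed 0.611-fold (exact permutation p = 0.08, adjusted 0.128) and Plcg2/Syk 0.996-fold (exact permutation p = 0.98, adjusted 0.98). For Inpp5d the mean effective transcript length, which enters TPM, differed between mice from 3361 to 4707 bases, the widest range among the members, and for Fcgr2b from 1377 to 1846 bases. Adding 0.1 to both TPM values brought Inpp5d/Syk and Btk/Syk past the threshold (exact permutation, adjusted p = 0.032 and 0.0467). So did leaving out WT mouse 1 of 34-weeks for Inpp5d/Syk (exact permutation, adjusted p = 0.016), and WT mouse 3 of 34-weeks or Lipa-/- mouse 9 of 12-weeks for Btk/Syk (exact permutation, adjusted p = 0.048 and 0.04).

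**Figure D3:**
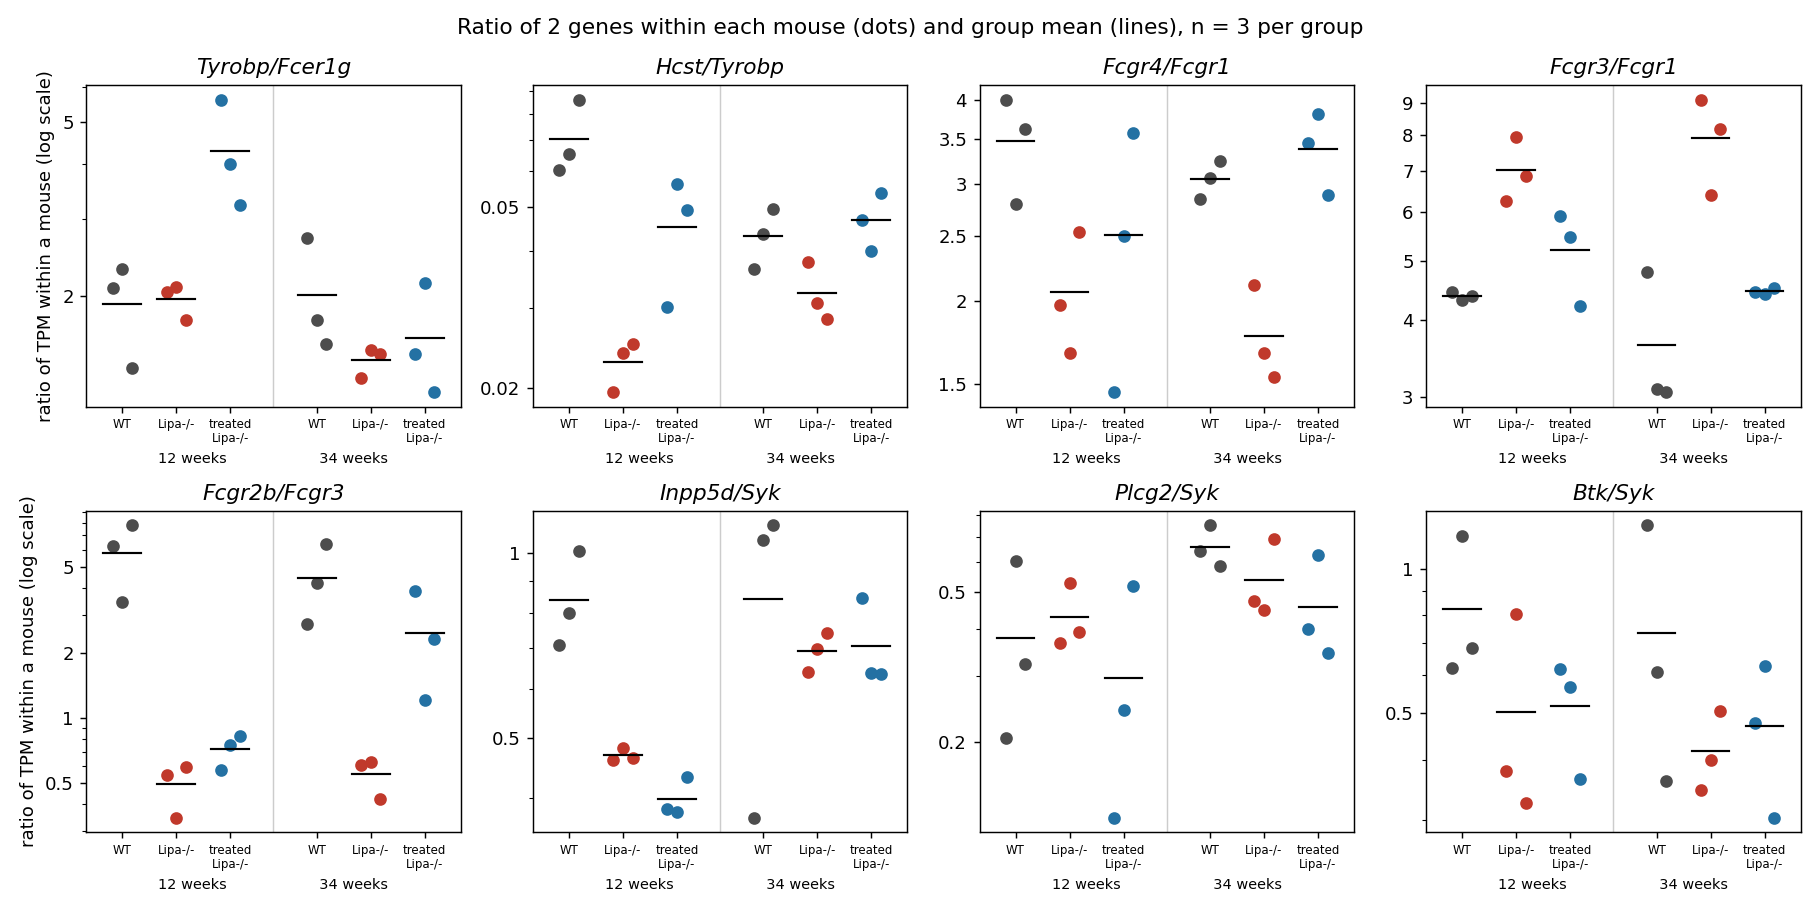
Ratio of TPM of 2 genes within each mouse on a log scale, for the 8 pairs, with WT in grey, Lipa-/- in red and treated Lipa-/- in blue (3 mice per group, lines at the group means). Fcgr2b/Fcgr3 lies above 1 in all WT mice and below 1 in all Lipa-/- mice, and Tyrobp/Fcer1g is highest in treated mice at 12-weeks.

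Most receptors listed as using these adaptors rose with them. Of 24 tested genes in a list of receptors taken to pair with Tyrobp, Fcer1g or Hcst, 22 were called higher in Lipa-/- mice at 12-weeks and 18 at 34-weeks. Over all genes tested 20.2% and 20.5% were called higher. The medians of the list were 4.55 and 3.12 on the log2 scale. The list also holds receptors, such as Clec1b, that do not need these adaptors to signal. Clec4e, a C-type lectin that pairs with Fcer1g and senses dead cells and mycobacterial glycolipid, was at 0 to 0.0478 CPM in WT and 19.5 to 33.8 CPM in Lipa-/- mice at 12-weeks, and at 0.0788 to 0.177 and 13.6 to 25.1 CPM at 34-weeks. Its WT mice held 0 to 3 reads each, at or under the floor of 3 reads, so no fold is given. Trem2, a lipid-sensing receptor that pairs with Tyrobp, changed by 8.65 and 7.85, from WT levels of 0.0523 to 0.911 CPM and 0.472 to 1.1 CPM. Its lowest WT mouse at 12-weeks was under the floor of 3 reads (0.144 to 0.161 CPM there), so the size of its 12-week changes is uncertain. At the lower end, Clec1b at 1.16 and Klrk1, the Hcst-coupled receptor NKG2D, at 1.278 did not pass at 12-weeks. In treated mice 18 of 24 were called higher at 12-weeks and 2 at 34-weeks, against 13.6% and 0.131% of all genes tested. Those 2 were Trem2 (5.54, then 2.92, edgeR adjusted p = 0.0259) and Clec4d (edgeR adjusted p = 0.0239), and Clec4d, which also pairs with Fcer1g, is outside the rule for named genes and was chosen after its values were seen. Clec4d was at 0.843 to 3.3 CPM in treated and 0.0536 to 0.209 CPM in WT mice at 12-weeks, and at 1.04 to 1.3 and 0.117 to 0.158 CPM at 34-weeks, with its WT mice near the floor of 3 reads. Without treated mouse 12, chosen after seeing the data, neither was called (Trem2 at 2.96 and Clec4d at 3.10, edgeR adjusted p = 0.0546 each), and 0 of the 24 passed, with 5 at an unadjusted p under 0.05. Without that mouse edgeR also called 0 genes of each other list of the pathway, with 1 to 4 a list at an unadjusted p under 0.05. With total counts 14 were called at 12-weeks in treated mice and 2 at 34-weeks.

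Kinases that act beside Syk gave calls in both directions. Of 14 tested Src family and proximal kinases, 6 were called higher and 2 lower in Lipa-/- mice at each time. Of all 14533 genes tested, 20.2% and 20.5% were called higher at the 2 times, and 1317 and 2288 genes lower. The lower calls in the list were thus near the share over all genes. Fgr, a Src kinase of myeloid cells, rose by 4.72 and 2.57 on the log2 scale. The T cell kinase Zap70 was called lower, at -1.909 and -3.955, as was the broadly expressed Yes1, at -1.17 and -1.01. Lyn, which phosphorylates ITAMs and inhibitory motifs alike, rose by 1.18 and 1.02. With total counts 8 were called higher and 1 lower at each time. Treated mice at 12-weeks gave 5 higher calls and 1 lower, where 13.6% of all genes were called higher and 1743 genes lower. Their list median of 0.38 became -0.01 with total counts. Zap70 stood at 1.55 there, on the higher side. At 34-weeks edgeR and DESeq2 called 0 (0 at an unadjusted p under 0.05).

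Adaptor proteins and effectors further down gave 23 called higher and 2 lower of 33 tested in Lipa-/- mice at 12-weeks, and 20 and 1 at 34-weeks. The shares called higher over all genes were 20.2% and 20.5%, and 1317 and 2288 of 14533 genes were called lower. The transmembrane adaptor Lat2 changed by 7.04 and 6.66 and the PI3 kinase subunit Pik3r5 by 6.00 and 5.63 on the log2 scale. Sos1, a Ras exchange factor, was called lower, at -1.43 and -1.09, and Plcg1, the broadly expressed relative of Plcg2, fell by 1.04 at 12-weeks and stood at -0.62 at 34-weeks, where it was not called. With total counts 0 were called lower at each time, and 25 higher. For treated mice at 12-weeks 14 were called higher and 7 lower, against 13.6% of all genes called higher and 1743 of 14533 called lower. That split of the list moved to 7 and 8 with total counts. At 34-weeks edgeR called 0 (7 at an unadjusted p under 0.05; DESeq2 called 1).

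Inhibitory receptors and phosphatases were called in 1 direction in Lipa-/- mice. Of 30 tested, 23 were called higher and 0 lower in Lipa-/- mice at 12-weeks, with 25 changed in either direction at an unadjusted p under 0.05, and 22 and 0 at 34-weeks, with 24 at an unadjusted p under 0.05. Among all 14533 genes tested, edgeR called 20.2% and 20.5% higher at the 2 times, and 1317 and 2288 genes lower. Of the list, DESeq2 called 23 higher and 0 lower at each time. The lipid-binding inhibitory receptor Cd300lf rose by 5.55 and 5.53, and Sirpa, the receptor for the CD47 signal, by 5.08 and 4.04. At the other end stood the phosphatase Ptpn11 at -0.60 and -0.13 and the lipid phosphatase Inpp5b at -0.46 and -0.90, neither of them called. Ptpn6 (SHP-1), which the inhibitory receptors recruit, rose by 1.96 and 1.11. In treated mice 17 were called higher and 3 lower at 12-weeks (11 and 4 with total counts). Over all genes 13.6% were called higher there and 1743 of 14533 lower. At 34-weeks edgeR and DESeq2 called 0 of the list (3 at an unadjusted p under 0.05).

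Among the other Fc receptors, 1 of 8 tested was called higher in Lipa-/- mice at 12-weeks and 2 of 8 at 34-weeks, against 20.2% and 20.5% of all genes tested. At 12-weeks it was Fcrl1, a B cell receptor homologue at 2.89. At 34-weeks the 2 were Fcrl1 at 2.93 and Fcgr2b at 1.07 ± 0.27 (edgeR adjusted p = 0.00445), and 2 were called lower, the antibody and albumin recycling receptor Fcgrt at -1.19 and the IgA transporter Pigr at -1.43. Fcgrt is outside the rule for named genes and was chosen after its values were seen. With total counts the 2 lower calls were lost. Fcgr2b at 12-weeks was at 0.86 ± 0.28, under the threshold of 1. Fcmr stood at -0.76 and Pigr at -0.72 at 12-weeks, neither called. In treated mice 2 were called higher at 12-weeks, against 13.6% of all genes tested. These were Fcrl1 at 1.86 and Fcrla, likewise chosen after its values were seen, at 2.11. At 34-weeks edgeR and DESeq2 called 0 (2 at an unadjusted p under 0.05).

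**Figure D4:**
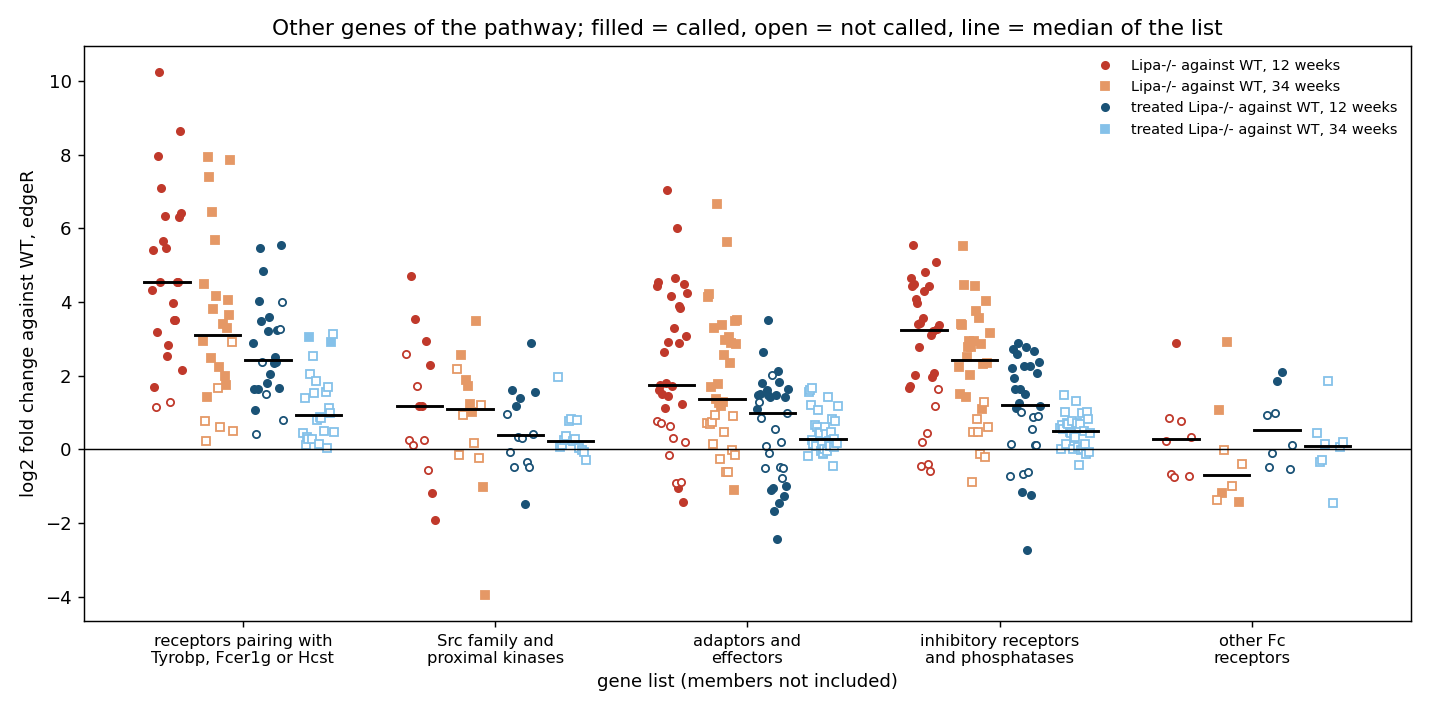
Log2 change against WT for the tested genes of 5 lists of the pathway that exclude the 10 members, in 4 comparisons (filled, called; open, not called; black lines, medians of the lists). The list of receptors taken to pair with the adaptors has the highest medians in Lipa-/- mice, 4.55 and 3.12. In treated mice at 34-weeks 2 of all the points are filled. The highest point, Clec4e, rests on WT levels at or under the floor of 3 reads.

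Markers of several cell types were called as well, and their part in the results was not tested. Over all 14533 genes tested, 20.2% and 20.5% were called higher in Lipa-/- mice at 12- and 34-weeks. In those comparisons 1317 and 2288 genes were called lower. For treated mice the shares called higher were 13.6% and 0.131%. The 8 general macrophage markers summed to 43.3 to 85.3 TPM in WT, 2760 to 7095.5 in Lipa-/- and 254.1 to 925 in treated mice at 12-weeks, and to 88.2 to 161.9, 2994.8 to 4967.3 and 138.7 to 451.7 TPM at 34-weeks. Of these 8, 7 were called higher in Lipa-/- mice at 12-weeks and 8 at 34-weeks, with medians of 3.61 and 2.51. Neutrophil markers (8 genes) were at 3.24 to 6.33 TPM in WT and 459.8 to 5851.2 TPM in Lipa-/- mice at 12-weeks, and at 3.54 to 13.8 and 516.9 to 1577.9 TPM at 34-weeks, with Ly6g, Camp, Ngp and Mpo at 0 in WT mice at 12-weeks. In treated mice at 12-weeks they were at 10.7 to 112.1 TPM, with 1 of 8 called. Monocyte markers (5 genes) summed to 6.66 to 12.5 TPM in WT, 56.5 to 449.6 in Lipa-/- and 20.4 to 44.6 in treated mice at 12-weeks, and to 12.6 to 19.3, 102.1 to 229 and 11.8 to 132 TPM at 34-weeks. Of these 5, 5 were called higher in Lipa-/- mice at 12-weeks and 4 at 34-weeks, and 2 and 0 in treated mice. The summed Kupffer cell markers (6 genes) overlapped between Lipa-/- and WT mice, at 111.6 to 340.1 against 122.9 to 188.9 TPM at 12-weeks and 93.2 to 448.8 against 182.5 to 306.3 TPM at 34-weeks, and stood at 291.5 to 306.6 TPM in treated mice at 12-weeks, above all WT mice of that time. Of the 6, 2 were called higher and 1 lower in Lipa-/- mice at 12-weeks, 0 higher and 3 lower at 34-weeks, and 2 higher in treated mice at 12-weeks. NK cell markers (6 genes) were at 0.523 to 0.557 TPM in WT, 2.97 to 5.09 in Lipa-/- and 2.7 to 5.5 in treated mice at 12-weeks, and the highest sum was 8.94 TPM in a treated mouse at 34-weeks. Of 4 tested, 2 were called higher in Lipa-/- and 3 in treated mice at 12-weeks. Among plasma cell markers 4 of 5 were called higher in Lipa-/- mice at 12-weeks and 2 at 34-weeks, with 3 in treated mice at 12-weeks. T cell markers gave 4 of 6 at each time in Lipa-/- mice, and 3 and 1 in treated mice. Dendritic cell markers gave 2 and 1 of 5 in Lipa-/- mice and 3 of 5 in treated mice at 12-weeks, platelet markers 1 of 4 at each time and 2 of 4, and B cell markers 1 of 5 at each time and 2 of 5. Hepatocyte markers were called lower in 3 of 7 at 12-weeks and 4 of 7 at 34-weeks in Lipa-/- mice. Endothelial markers gave 1 of 4 higher and 1 lower at each time, and stellate cell markers 2 of 4 higher with 1 and then 2 lower. For platelet, B cell and endothelial markers the higher calls in Lipa-/- mice were thus near the shares over all genes. Mast cell and basophil markers, which would accompany the IgE receptor that also uses Fcer1g, stayed at or below 5.61 TPM in sum, with Cpa3 and Tpsb2 at 0 in WT mice at 12-weeks.

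The gene nearest to the mean profile of the 10, by the root mean square difference over 18 mice in log2 CPM from the WT mean, was Anxa3 at 0.23, followed by Otulinl at 0.24, Fermt3 at 0.26, Plekho1 at 0.27 and Rgs10 at 0.28. The nearest gene to Tyrobp was Cyba, a subunit of the phagocyte NADPH oxidase, at 0.19. For Fcgr3 it was Cd300a at 0.21, for Fcgr4 Clec4a3 at 0.33 and for both Fcgr1 and Hcst Tmsb4x at 0.30 and 0.32. Syk lay nearest to Rasa4 at 0.27, Btk to Naaa at 0.33, Inpp5d to Tbc1d9 at 0.34 and Plcg2 to Ssbp4 at 0.37. Among the members, Fcgr1 and Hcst were the closest pair at 0.39, and Tyrobp and Inpp5d the most distant at 1.58.

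Genes beside the members on the chromosomes mostly did not rise once other members were left out. Of the 16 nearest tested genes that are not members, 1 was called higher and 3 lower in Lipa-/- mice at 12-weeks. At 34-weeks 2 were called higher and 7 lower. Tyrobp and Hcst are each other's neighbours, as are Fcgr4 and Fcgr3, and all of them were called higher at both times. Over all 14533 genes tested, 20.2% and 20.5% were called higher at the 2 times, and 1317 and 2288 genes were called lower. Nfkbid, an inhibitor of NF-kappa B that lies 1853 bases from Hcst, was the one of the 16 called higher at both times, at 3.78 and 4.79. At 34-weeks it was joined by Fcgr2b. The liver genes Apoa2 (-2.28) and Hjv (-1.21) and the genes Auh (-1.63), Lrfn3 (-1.18 and -1.72), Sdr42e1 (-1.56 and -2.28) and Neu2 (-1.12 and -2.42) were among those called lower.

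Reads could be shared between relatives for few of the members. Of the 31-base words in Fcgr3 transcripts, 10.3% also occurred in transcripts of other genes, 235 of 3299 of them in Fcgr2b, so the division of reads between Fcgr3 and Fcgr2b by the estimation of the authors is less certain than for the rest. For the other 9 members the share was at most 1.25% (Fcgr4), and it was 0 for Fcgr1, Fcer1g, Tyrobp, Hcst, Plcg2 and Btk. On GRCm39, Fcgr2b (chr1:170786186-170804177), Fcgr4 (chr1:170846466-170857330), Fcgr3 (chr1:170878738-170893549) and Fcer1g (chr1:171057141-171062219) lie in 1 cluster on chromosome 1.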

How the data were processed

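RNA-seq was analysed from 18 mouse livers in 6 groups of 3, grouped by the labels of each mouse. The estimated counts were deposited by the authors, who quantified reads against mouse transcripts of GRCm39 with Salmon and gathered the transcript estimates per gene through tximport (R 4.3.0 per the submitters' processing notes). The TPM values and the mean effective transcript lengths were deposited by the authors from the same step. A table of the authors' own DESeq2 1.40.1 comparisons was not used here, and it holds log2 fold changes and p-values.

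Counts were rounded and fitted with edgeR 4.0.16 in R 4.3.3 (TMM factors, quasi-likelihood F test, 6 group means, genes with more than 100 summed reads, 14533 of 35441). The 11 comparisons were drawn from this fit, and p values were adjusted by Benjamini-Hochberg over all genes tested. Ratios of TPM within a mouse were tested by exact permutation within time points in Python 3.11.15. The members, lists and pairs were chosen with earlier results of these data known. Named genes were the members, the 2 highest and 2 lowest log2 changes of each list in Lipa-/- against WT at 12-weeks, Fcgr2b, Trem2, Lyn, Ptpn6, the nearest profiles and called flanking genes. A few genes that this rule names are not reported here. The labels give each mouse a number, which names a single mouse only together with its study code. The alternatives were DESeq2 1.42.0, limma 3.58.1 on log2(TPM + 0.1), other scalings, filters and thresholds, offsets for transcript length, fits of only the groups compared, a replicate block and each mouse left out in turn. The edgeR script and the permutation test were tested on simulated data. Levels in CPM worth 3 reads cover counting error only. Positions came from GENCODE vM39 on GRCm39, and promoters from RefSeq on GRCm38.p6.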

Additional observations from a re-analysis of the deposited data

Results flagged for a closer look

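The gap between treated Lipa-/- and WT mice differed between the time points for 2 of the 10 genes, by the test of that difference in edgeR. This count is near the share over all genes tested, 18.4%. For Tyrobp the log2 difference was 2.82 lower at 34- than at 12-weeks (-2.82 ± 0.74, edgeR adjusted p = 0.026), with gaps of 3.28 and 0.47. For Fcer1g it was -1.43 ± 0.47 (edgeR adjusted p = 0.0432), with gaps of 2.14 and 0.71. The 2 time points carry different study codes and have their own WT mice, so time and code cannot be told apart. Without treated mouse 12 of 34-weeks 6 of the 10 genes were called, and over the mice left out in turn the count ran from 0 to 6. Fcer1g was not called with upper quartile factors, total counts, offsets for transcript length, only the groups compared or limma on TPM, and Tyrobp was not called with only the groups compared.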

How the results depend on the processing

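The members called in Lipa-/- against WT were 10 at each time in all 16 alternatives a time, and in treated against WT and treated against Lipa-/- mice the counts stayed within 1.5 times. For the change of the treated gap with time (2 called), the count was 1 with upper quartile factors, total counts, offsets for transcript length and limma on TPM, 0 with only the groups compared or an adjusted p under 0.01, 5 with DESeq2, and 0 to 6 with single mice left out. For treated mice between times (4 called) it was 2 with an adjusted p under 0.01 and 2 to 6 with mice left out. For WT mice between times DESeq2 called 1 and the replicate block 0. The numbers 1 to 3 name different mice at the 2 times, and the deviations of same-numbered mice correlated at 0.076, -0.24 and 0.46.

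Inpp5d in treated against WT mice at 12-weeks was -0.099 with limma on TPM. With single mice left out, the treated against WT change at 34-weeks ran from -0.27 to 0.644 (Fcgr1), -0.017 to 1.023 (Fcgr3), -0.219 to 0.909 (Fcgr4), -0.282 to 0.908 (Tyrobp), -0.123 to 0.911 (Plcg2) and -0.084 to 0.69 (Btk), the negative values being without treated mouse 12. Among the log2 ratios of Lipa-/- against WT mice, Inpp5d/Syk was -0.569 and Btk/Syk -0.784 with 0.1 added to both TPM values. With mice left out Inpp5d/Syk ran from -0.695 to -0.379, Btk/Syk from -0.907 to -0.554 and Plcg2/Syk from -0.247 to 0.128. In treated against WT mice Fcgr2b/Fcgr3 ran from -2.265 to -1.716 and Inpp5d/Syk from -0.805 to -0.49.

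The level of treated mice in percent of the WT mean at 12-weeks was 304.9 (Fcgr1), 222.9 (Fcgr4), 285.6 (Fcer1g), 196.2 (Syk), 401.8 (Hcst) and 91.2 (Inpp5d) on TPM in place of CPM. With mice left out it ran from 362.6 to 643.7 (Fcgr1), 382.3 to 569.6 (Fcer1g), 735.5 to 1428.3 (Tyrobp), 500.5 to 832.8 (Hcst) and 171.7 to 307.9 (Plcg2), and at 34-weeks from 160.7 to 247.4 (Syk) and 115.1 to 231.3 (Inpp5d). The cause of these changes was not tested. Counting depth limits Hcst, Plcg2 and Btk in WT mice.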
